A study of Mus musculus with 6 samples.

Results

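The genes examined encode nuclear subunits of respiratory complexes II, III, IV and V, together with cytochrome c. They were chosen by symbol: Sdha to Sdhd, Cyc1, Cycs, and every symbol beginning with Uqcr, Cox4i, Cox5, Cox6, Cox7, Cox8 or Atp5. A gene was a member when a probe had a detection p under 0.05 on 3 or more of the 6 arrays, and the probe with the highest mean signal stood for it. Of 45 symbols that matched, 41 were members, out of 13455 genes tested, a number made up of 10493 symbols and 2962 detected probes without a symbol, each counted as a gene. They comprised 3 genes of complex II, 8 of complex III with cytochrome c, 14 of complex IV and 16 of complex V. Each array, an Illumina bead array, carried quadriceps RNA of 1 mouse, from 3 Klhl40 knockout (KO) and 3 wild-type (WT) mice. All 6 mice were C57BL/6 and 0 days old. Klhl40 encodes a muscle kelch protein, and the loss of its human counterpart causes nemaline myopathy. The design text gives the age as a means to limit changes due to poor feeding, and states that every KO mouse was killed together with a WT littermate. The sources used here do not state which exons the deletion removed or whether it was in all tissues. They also do not state whether mice of a group had different parents, so the p-values refer to these 6 mice only. The limma fit draws each gene's variance toward a value shared by all genes. Its SEs, intervals and p-values therefore rest only in part on that gene's own spread between mice.

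The mitochondrial respiratory chain passes electrons from substrates to oxygen and uses the energy to pump protons across the inner membrane. Complex II (succinate dehydrogenase) feeds electrons from the citric acid cycle into ubiquinone, complex III (cytochrome bc1) hands them to cytochrome c, and complex IV (cytochrome c oxidase) passes them to oxygen. Complex V (ATP synthase) lets the protons flow back and makes ATP. Complexes III, IV and V are built from subunits of both genomes, and all members here are nuclear genes. Complex IV has subunits with a striated muscle isoform (Cox6a2, Cox7a1, Cox8b) and a ubiquitous one (Cox6a1, Cox7a2, Cox8a), and in rodents the muscle isoforms become predominant in muscle around and after birth. Oxidative slow fibres carry more of these complexes than glycolytic fibres.

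The 4 matching symbols that failed detection were Sdha, the flavoprotein of complex II, Uqcrfs1, the Rieske iron-sulfur protein of complex III, and Cox7b2 and Cox8c, isoforms known from testis. All their probes were detected on 0 of 6 arrays, with mean signals of 99.7 to 112, near the array medians of 111 to 113. Sdha and Uqcrfs1 are needed in every cell that respires, so for them the failure concerns these probes and gives no level. Of the members, 40 were detected on all 6 arrays. The member nearest the threshold was Cox4i2, detected on 4. Cox8a and Atp5g1, which no probe was annotated with, are not analysed here.

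The promoters of some members hold a sequence feature that the choice of genes did not use. RefSeq windows of 250 bases before to 50 bases after the transcription start (GRCm38.p6) were held for 31 members. The letters GCATGCGC, the core that nuclear respiratory factor 1 (NRF1) recognises, were searched on both strands. They occurred in 8 of the 31 members (25.8%), against 494 of the 8470 tested genes with a window (5.83%) and 824 of all 27025 genes (3.05%). The 8 members were 1 gene of complex II, 3 of complex III with cytochrome c, 1 of complex IV and 3 of complex V, and their matches are shown with 10 bases on each side, in the direction of the gene. Capitals mark the match, and in the 4 genes with 10 capitals the matches on both strands overlap.
Sdhb, chr4:140961207-140961234, plus strand: agcccagtggGCATGCGCcctacgggcc
Uqcrc1, chr9:108936668-108936697, plus strand: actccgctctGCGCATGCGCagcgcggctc
Uqcr11, chr10:80406808-80406835, minus strand: tcgccttcacGCATGCGCtatacgtctg
Cycs, chr6:50566612-50566639, minus strand: atgctagctcGCATGCGCgcgcacaaac
Cox6a1, chr5:115349101-115349130, minus strand: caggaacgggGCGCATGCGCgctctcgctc
Atp5g2, chr15:102671070-102671099, minus strand: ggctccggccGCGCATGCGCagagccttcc
Atp5k, chr5:108434430-108434459, minus strand: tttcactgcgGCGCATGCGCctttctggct
Atp5l, chr9:44920965-44920992, minus strand: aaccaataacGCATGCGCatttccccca
The match began 42 to 60 bases before the start in Sdhb, Cycs, Atp5g2 and Atp5k, and 30 bases after it in Uqcrc1. Other motifs were less frequent among the 31 members. The estrogen-related receptor letters TCAAGGTCA occurred in 2 members, Sdhd and Atp5g3 (6.45%, against 0.307% of tested genes), and the YY1 letters AAGATGGCG in 2, Atp5j and Atp5j2 (6.45%, against 3.48%). The ETS letters CCGGAAGTG, read by GABPA, occurred in 1, Uqcrh (3.23%, against 4.71%). The E-box CAGCTG occurred in 2, Cox8b and Atp5b (6.45%, against 18.5%), and the MEF2 letters CTATTTATA in 0 (against 0.496%). These matches are letters in a window, no binding was measured, and no test of enrichment was run.

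The windows of the muscle isoforms Cox7a1 and Cox8b held fewer CG dinucleotides than those of the ubiquitous Cox7a2 and Cox6a1. Over the 34 windows of the members the number of CG dinucleotides had a median of 19 (range 2 to 43), against 20 over the windows of all tested genes. Cox8b had the fewest, 2, and Cox7a1 had 7, whereas Cox7a2 had 20 and Cox6a1 had 32. A low number was not limited to muscle isoforms, since Cox7b, which is not one, had 5 and the testis isoform Cox6b2 had 10. No window was held for the muscle isoform Cox6a2. Cox7a1 (chr7:30183921-30184220, plus strand), Cox8b (chr7:140900397-140900696, minus strand) and Cox7a2 (chr9:79759804-79760103, minus strand) are printed to show this contrast, with each CG in capitals.
Cox7a1: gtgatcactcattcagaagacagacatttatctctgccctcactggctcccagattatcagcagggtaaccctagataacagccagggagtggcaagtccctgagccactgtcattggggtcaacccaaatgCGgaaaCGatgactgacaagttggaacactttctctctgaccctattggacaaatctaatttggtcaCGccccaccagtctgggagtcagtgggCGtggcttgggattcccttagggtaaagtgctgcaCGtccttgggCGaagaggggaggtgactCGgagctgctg
Cox8b: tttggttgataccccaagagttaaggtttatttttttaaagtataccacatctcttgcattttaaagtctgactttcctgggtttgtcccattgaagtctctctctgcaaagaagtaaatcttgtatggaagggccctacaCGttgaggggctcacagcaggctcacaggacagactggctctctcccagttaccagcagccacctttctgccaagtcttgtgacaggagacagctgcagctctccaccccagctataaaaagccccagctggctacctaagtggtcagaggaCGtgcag
Cox7a2: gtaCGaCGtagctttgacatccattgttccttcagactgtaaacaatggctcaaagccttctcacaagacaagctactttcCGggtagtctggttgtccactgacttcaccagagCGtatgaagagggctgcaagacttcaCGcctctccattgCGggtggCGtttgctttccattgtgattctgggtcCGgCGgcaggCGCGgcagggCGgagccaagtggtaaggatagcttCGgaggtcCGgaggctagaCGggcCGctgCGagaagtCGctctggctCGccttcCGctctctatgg

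In KO quadriceps 0 of the 41 genes were called higher or lower than in WT by limma at an adjusted p under 0.05, and the smallest adjusted p was 0.684. Over all genes tested 20 of 13455 were called (0.149%), of which 15 were higher (0.111%) and 5 lower (0.0372%) in KO, and such a share is less than 1 gene in 41. At an unadjusted limma p under 0.05 there was 1 member of 41, Atp5e, against 979 of 13455 genes (7.28%). Differences are given as KO minus WT on the log2 scale of normalised intensity. They lay between -0.11 for Cox6a1 and 0.26 for Atp5e. Their median was 0.05 over the members and -0.0022 over all genes tested. The KO mean was above the WT mean for 28 of the 41 members (68.3%) and for 49.4% of all genes. With median centring in place of quantile normalisation it was 33 of 41, and Cyc1, Cycs, Cox4i1, Atp5o and Atp5j changed sign. Leaving out 1 array gave 23 of 41 without KO 1, 26 without KO 3 and 27 to 29 without any of the others.

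**Figure D1:**
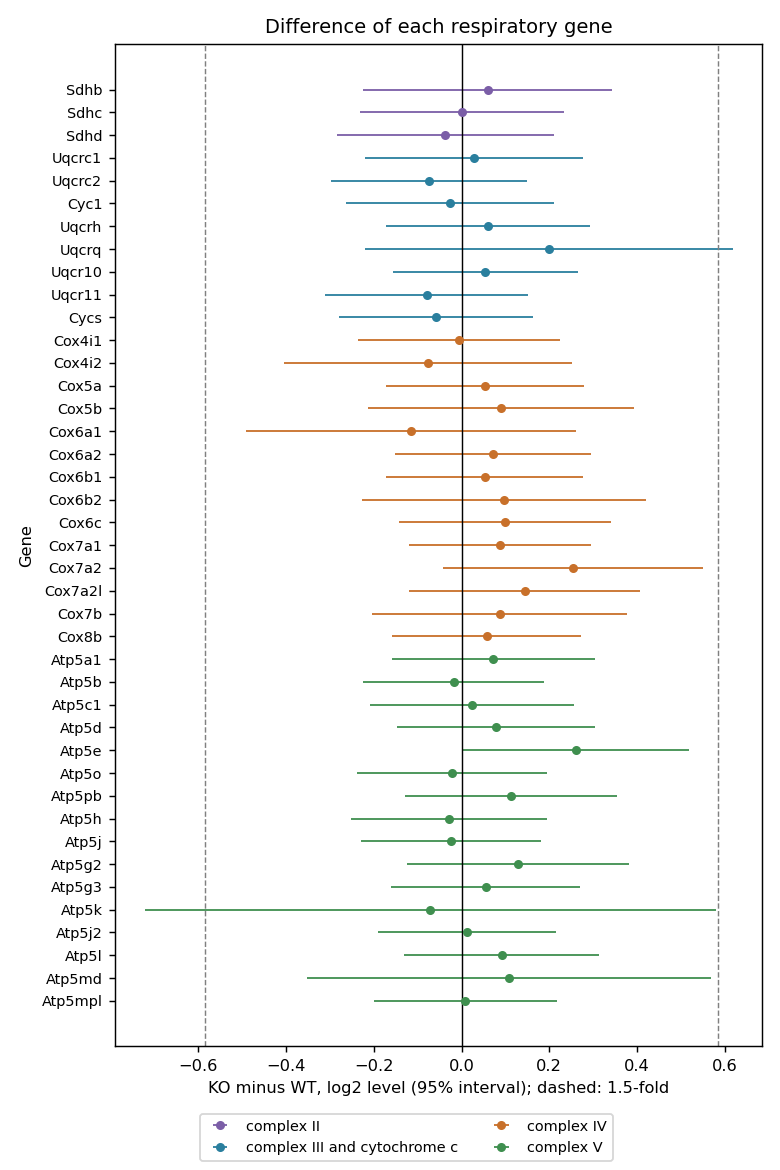
Difference of each of the 41 respiratory genes, KO minus WT in log2 normalised intensity (x axis), with its 95% interval from limma (n = 3 mice per group), grouped by complex. All points lie between -0.11 and 0.26, and 39 of the 41 intervals lie inside the dashed lines at 1.5-fold.

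The intervals limit how large a change in normalised intensity these arrays could have missed, which need not bound the change in RNA. For 39 of the 41 members the 95% interval of the limma fit lay within 1.5-fold in both directions, a limit chosen after the values were seen, which held for 80.8% of all genes tested. The exceptions were Uqcrq, whose interval reached 1.54-fold higher in KO, and Atp5k, whose interval reached down to 0.606 as a ratio of KO to WT. The members were measured with little spread. The pooled SD within groups had a median of 0.09 over the members and 0.16 over all genes, and the members were also bright, with a median level of 12.21 against 7.14. Among the brightest probes quantile normalisation holds values together, so a small spread there is not only precision. Of the members 14 were among the brightest 200 probes on all arrays. The muscle marker Myh8, not a member, had 15.23 on all 6 arrays. Its limma SE was still 0.0855, since limma draws variances toward a shared value. Each member was read by 20 to 72 beads per array, and the standard error over beads was at most 7.53% of the signal. Leaving out each array in turn gave 0 calls among the members, beside counts over all genes of 1 without KO 1, 2 without KO 2, 4 without KO 3, 1 without WT 1, 7 without WT 2 and 24 without WT 3. With so few calls over all genes, these counts of 0 add little about the members. With the replicate number as a block, taken here to mark littermate pairs, the count over all genes was 26. Of these 18 were higher and 8 lower in KO, against 15 higher and 5 lower without the block. Again 0 members were called, with a smallest limma adjusted p of 0.426.

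**Figure D2:**
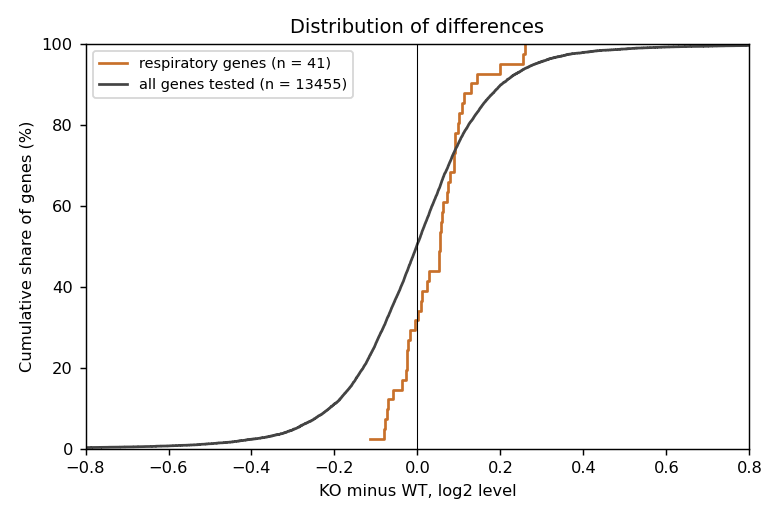
Cumulative share of genes (y axis, %) against the difference KO minus WT in log2 level (x axis, extremes outside the frame) for the 41 respiratory genes and all 13455 genes tested. The curve of the respiratory genes rises between -0.11 and 0.26 with its median at 0.05, whereas that of all genes has its median at -0.0022 and longer tails.

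A few whole-array measurements bear on these values. Klhl40 itself had 4.79, 5.72 and 4.46 in KO 1 to 3 and 10.63, 10.77 and 10.76 in WT 1 to 3, with no overlap (limma adjusted p = 0.00115). Its probe was detected on 1 of 3 KO arrays and 3 of 3 WT arrays, so the size of the difference is limited by background and is not given. All 6 measured markers of skeletal muscle fibres, out of 7 listed, were detected in both groups. WT 3 lay apart from the other arrays, at 32.4 on the first principal component against -14.6 to 8.29. The 5 measured markers of adipocytes, out of 6 listed, had a summed normalised intensity of 1004, 1517 and 1258 in KO and 1695, 717 and 6800 in WT, so that WT 3 stood highest. Of 6 brown adipocyte markers 3 were detected, and the defining gene Ucp1 was not, which gives no level for it. Among the detected ones, Cidea had 8.56, 8.77 and 9.23 in KO and 8.47, 8.72 and 9.45 in WT. In bulk tissue fewer cells of a type and less RNA per cell cannot be told apart.

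Complex II was represented by its iron-sulfur subunit and both membrane anchors. Sdhb, the iron-sulfur protein, had 10.65, 10.62 and 10.82 in KO and 10.77, 10.71 and 10.44 in WT. The groups overlapped, and the difference was 0.06 (SE 0.12, limma adjusted p = 0.963). A second bright Sdhb probe also gave 0.06, and another, near background, gave 0.25. Sdhc, a membrane anchor that helps bind ubiquinone and heme, averaged 11.90 ± 0.08 in KO and 11.90 ± 0.10 in WT (SD, n = 3 each), with a ratio of KO to WT between 0.852 and 1.18 at 95% confidence. Sdhd, the other anchor, averaged 7.39 ± 0.07 in KO and 7.43 ± 0.13 in WT (SD, n = 3 each), a difference of -0.04 (SE 0.11). The sign of all 3 changed on leaving out 1 array. Of the 4 assembly factor genes of complex II, such as Sdhaf3 and Sdhaf4, 0 were called by limma and 0 had an unadjusted p under 0.05, with a median difference of -0.02.

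Complex III is a dimer whose redox centres sit in cytochrome b, cytochrome c1 and the Rieske protein. Cyc1, which encodes cytochrome c1, had 12.20, 12.07 and 12.32 in KO and 12.24, 12.18 and 12.25 in WT, so the KO values spanned the WT values. The core proteins Uqcrc1 and Uqcrc2, which flank the matrix side of the dimer, had differences of 0.03 (SE 0.11) and -0.07 (SE 0.10). Uqcrh, the hinge protein at the cytochrome c docking side, had 0.06 (SE 0.10), and the small membrane subunits Uqcr10 and Uqcr11 had 0.05 (SE 0.09) and -0.08 (SE 0.10). These 6 genes had limma adjusted p-values of 0.936 to 0.983. Uqcrq, the small ubiquinone-binding protein, varied most within the complex, with 8.19, 7.84 and 7.48 in KO and 7.76, 7.66 and 7.50 in WT. Its KO 1 value was the highest of the 6, its KO 3 value the lowest, and the difference of 0.20 (SE 0.18, limma adjusted p = 0.906) moved between 0.02 and 0.38 on leaving out 1 array. Over the 8 genes the median difference was 0.0012, with 4 positive and 4 negative.

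Cytochrome c, the soluble carrier between complexes III and IV, is encoded in somatic cells by Cycs. The chosen Cycs probe had 12.16, 12.18 and 12.30 in KO and 12.35, 12.24 and 12.23 in WT, a difference of -0.06 (SE 0.10, limma adjusted p = 0.956). Its other detected probes were dim and went the other way. A probe with a mean signal of 130, close to background, had 5.58, 5.48 and 5.50 in KO and 5.42, 4.96 and 4.92 in WT, a difference of 0.42, and another gave 0.13. Averaging the 3 probes turned the Cycs difference to 0.17. Over all members 12 genes had a further detected probe, and 12 of those 17 probes had the sign of the chosen one.

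Complex IV carried the muscle-specific members. Cox6a2, the muscle isoform of subunit VIa, had 14.09, 14.09 and 14.02 in KO and 14.00, 14.09 and 13.89 in WT, a difference of 0.07 (SE 0.10, limma adjusted p = 0.937). The ubiquitous isoform Cox6a1 had 12.33, 12.28 and 12.24 in KO and 12.26, 12.16 and 12.77 in WT. WT 3 was the high array for Cox6a1 and the low one for Cox6a2. A second Cox6a1 probe had the same pattern, with 11.64, 11.60 and 11.61 in KO and 11.72, 11.58 and 12.20 in WT. The Cox6a1 difference was -0.11 (SE 0.16, limma adjusted p = 0.941), and 0.07 without WT 3. WT 3 was also the array with the highest adipocyte markers, whose part in the Cox6a1 value was not tested.

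Cox7a1, the muscle isoform of subunit VIIa, had 11.98, 11.96 and 12.05 in KO and 11.93, 11.93 and 11.87 in WT. All KO values were above all WT values, but by little: the difference was 0.09 (SE 0.09, limma adjusted p = 0.915), and its 95% interval ran from -0.12 to 0.29. The ubiquitous isoform Cox7a2 had 8.33, 8.23 and 8.64 in KO and 8.22, 8.14 and 8.07 in WT. Here too the groups did not overlap, and the difference was 0.25 (SE 0.13, limma adjusted p = 0.746). KO 3 lay highest, and without it the difference was 0.13. With Atp5e these were the 3 members, 7.32% of the 41, whose normalised KO values all exceeded WT, against 6.93% of all genes tested. In the intensities before normalisation the groups overlapped for all 3. In 0 members were all KO values below WT, against 6.42% of all genes.

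Cox8b, the muscle isoform of subunit VIII, had 12.70, 12.65 and 12.73 in KO and 12.60, 12.58 and 12.72 in WT, a difference of 0.06 (SE 0.09, limma adjusted p = 0.956). Cox4i1, the ubiquitous isoform of the large nuclear subunit IV, had 13.78, 13.66 and 13.80 in KO and 13.67, 13.76 and 13.84 in WT, a difference of -0.01 (SE 0.10). Cox4i2, an isoform of lung that is induced by low oxygen, lay at the edge of detection with 5.03, 4.66 and 4.92 in KO and 4.76, 4.95 and 5.14 in WT, with 2 of the 3 arrays detected in either genotype. Cox6b2, known as the testis isoform of subunit VIb, was also dim, at 5.96 ± 0.10 in KO and 5.87 ± 0.24 in WT (SD, n = 3 each). Its ubiquitous partner Cox6b1 had 13.91 ± 0.04 in KO and 13.86 ± 0.10 in WT (SD, n = 3 each). None of these 5 genes was called.

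**Figure D3:**
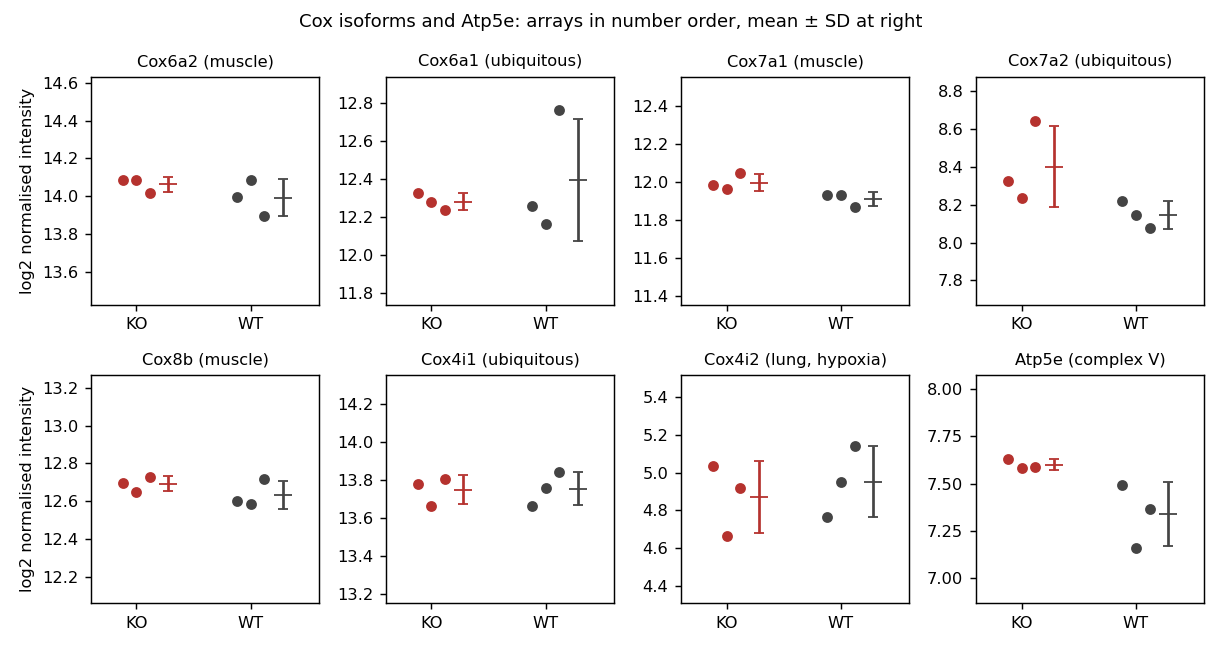
Level in log2 normalised intensity (y axis, a span of 1.2 in every panel) of 7 Cox isoform genes and Atp5e on each array, with KO left and WT right, points in the order of replicate 1 to 3, and the mean ± SD beside them (n = 3 mice per group). Only Cox7a1, Cox7a2 and Atp5e have KO points that all lie above the WT points, and WT 3 is the high point of Cox6a1.

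The balance of muscle and ubiquitous isoforms was compared within each array, as the log2 level of the one minus that of the other. The absolute size of such a difference depends on the probes, so only its variation between arrays was read. For Cox6a2 minus Cox6a1 it was 1.76, 1.81 and 1.78 in KO and 1.74, 1.93 and 1.13 in WT. The KO minus WT change was 0.19 (exact two-sided permutation p = 0.7), and -0.05 without WT 3. For Cox7a1 minus Cox7a2 it was 3.66, 3.73 and 3.41 in KO and 3.71, 3.79 and 3.79 in WT, a change of -0.17 (exact permutation p = 0.2). The change for Cox4i2 minus Cox4i1 was -0.07 (exact permutation p = 0.5), and that for the c-subunit genes Atp5g2 minus Atp5g3 was 0.07 (exact permutation p = 0.3). The 4 pairs formed 1 family, with adjusted p of 0.6 to 0.7, and 3 mice against 3 cannot give an exact p below 0.1. In all 4 pairs the groups overlapped. Leaving out 1 array moved the change to between -0.23 and -0.07 for Cox7a1 minus Cox7a2, where -0.07 was the value without KO 3, to between -0.14 and -0.01 for Cox4i2 minus Cox4i1, and to between 0.03 and 0.12 for Atp5g2 minus Atp5g3. Between arrays of the same number, taken here as littermate pairs, Cox7a1 minus Cox7a2 was lower in KO in 3 of 3. The exact paired permutation p was 0.25, the smallest that 3 pairs can give.

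The remaining subunits of complex IV had small differences. Cox5a, which surrounds the core on the matrix side, had a difference of 0.05 (SE 0.10). Its neighbour Cox5b, which holds a zinc ion, had 14.34, 13.93 and 13.96 in KO and 14.03, 14.02 and 13.91 in WT, so that KO 1 alone stood above the rest. A second Cox5b probe had KO 1 highest as well, at 12.07 against 11.48 to 11.71 on the other arrays. The small subunits Cox6c and Cox7b gave 0.10 (SE 0.10) and 0.09 (SE 0.13). Cox7a2l, which is related to subunit VIIa, had 11.45, 11.23 and 11.46 in KO and 11.12, 11.23 and 11.37 in WT, a difference of 0.14 (SE 0.11, limma adjusted p = 0.890). Over the 14 genes of complex IV the median difference was 0.08, with 11 positive and 3 negative.

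Complex V consists of a catalytic F1 head in the matrix, a peripheral stalk and a membrane part that holds the ring of c subunits. In the head, Atp5b, the catalytic beta subunit, had 15.10, 15.09 and 15.12 in KO and 15.07, 15.12 and 15.17 in WT. Its probe ranked 2 to 6 from the brightest on every array, where quantile normalisation holds values together, and 14 members were among the brightest 200 probes on all arrays. On the scanner's own scale it read 34672 ± 1379 in KO and 36096 ± 683 in WT (SD, n = 3 each). The alpha subunit gene Atp5a1 had a difference of 0.07 (SE 0.10), the gamma subunit gene Atp5c1 of the central shaft 0.02 (SE 0.10) and Atp5d, the delta subunit, 0.08 (SE 0.10).

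Atp5e, which encodes the small epsilon subunit at the foot of the shaft, had 7.63, 7.58 and 7.59 in KO and 7.49, 7.16 and 7.37 in WT. After normalisation all KO arrays were above all WT arrays, and the KO values lay close together. The difference of 0.26 (SE 0.11) was the largest of the 41, with a ratio of KO to WT of up to 1.43 at 95% confidence, an unadjusted p of 0.0493 and a limma adjusted p of 0.684. It stayed between 0.17 and 0.34 on leaving out each array in turn. The probe was dim, with a scanner intensity of 280 ± 11.9 in KO and 256 ± 20.5 in WT (SD, n = 3 each). On that scale the groups overlapped, with KO 2 at 267 and WT 3 at 271.

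The 4 peripheral stalk genes had differences between -0.03 and 0.11. Atp5o, the oligomycin sensitivity subunit at the top of the stalk, had a difference of -0.02 (SE 0.09), Atp5h, subunit d, -0.03 (SE 0.10), and Atp5j, coupling factor 6, -0.02 (SE 0.09). Atp5pb, subunit b, had 0.11 (SE 0.10), its second bright probe gave 0.14, and 2 dim probes gave -0.13 and 0.05. In the membrane, 2 of the genes that encode one and the same mature c subunit were measured. Atp5g3 had 14.82, 14.75 and 14.91 in KO and 14.79, 14.78 and 14.75 in WT, a difference of 0.05 (SE 0.09). Atp5g2 had 10.99, 10.83 and 11.05 in KO and 10.83, 10.94 and 10.72 in WT, a difference of 0.13 (SE 0.11, limma adjusted p = 0.896).

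The supernumerary membrane subunits, which hold complex V dimers together, included the tightest and the loosest measurements. Atp5j2, subunit f, averaged 13.93 ± 0.03 in KO and 13.92 ± 0.03 in WT (SD, n = 3 each), a difference of 0.01 with a ratio between 0.876 and 1.16 at 95% confidence. Atp5mpl had 0.01 (SE 0.09) and Atp5l, subunit g, 0.09 (SE 0.10), with 0.18 from a second Atp5l probe. Atp5md, known as DAPIT, was dim and spread over 5.79 to 6.20 in KO and 5.59 to 6.28 in WT. Atp5k, subunit e, had 7.20, 7.28 and 6.56 in KO and 7.42, 7.32 and 6.52 in WT. Both arrays with the number 3 were low and the other 4 were alike, so that the genotypes overlapped with a difference of -0.07 (SE 0.28). Over the 16 genes of complex V the median difference was 0.04, with 11 positive and 5 negative.

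**Figure D4:**
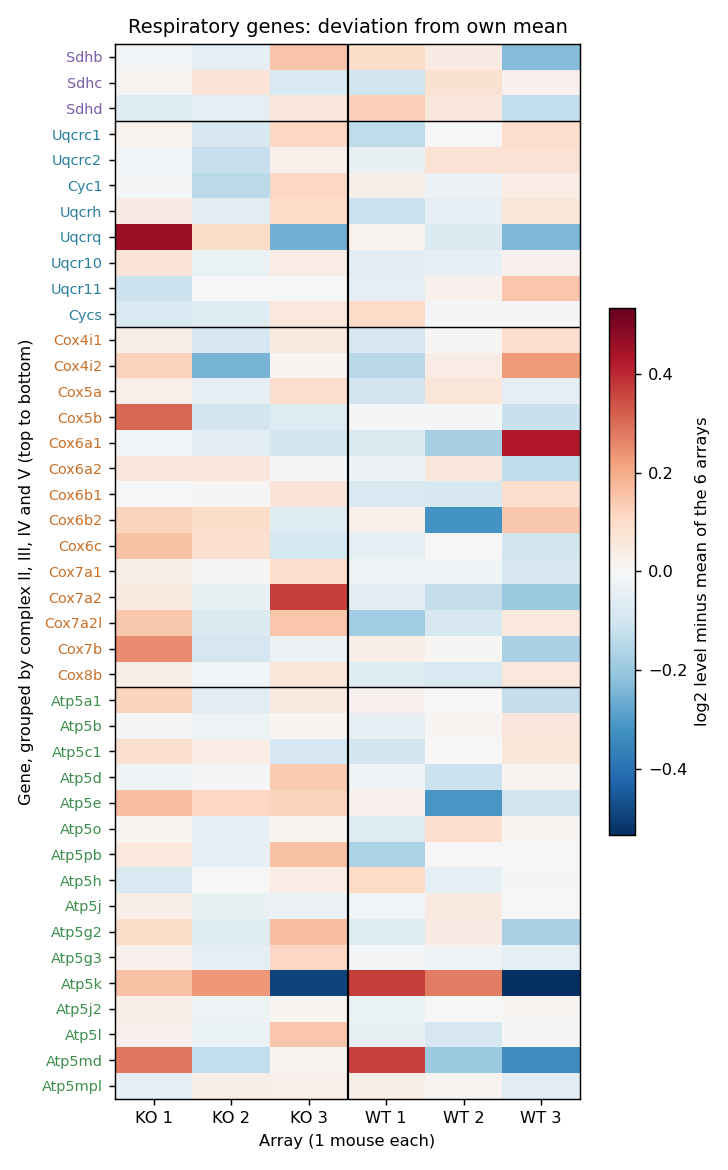
Deviation of each of the 41 respiratory genes (rows, grouped by complex) from its own mean over the 6 arrays (columns, KO left of WT), in log2 normalised intensity, with red above and blue below the mean. Most cells are pale, and the strong ones are single arrays or numbers, such as WT 3 in Cox6a1 and KO 3 with WT 3 in Atp5k.

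Summed over the members, the arrays differed little. The median member lay 0.03, -0.04 and 0.04 from its own mean over the 6 arrays on KO 1 to 3 and -0.04, -0.0038 and -0.0039 on WT 1 to 3. KO 2 and WT 1 were the low arrays and KO 1 and KO 3 the high ones, so the genotypes were mixed. The number of members above their own mean was 30, 11 and 29 on the KO arrays and 13, 19 and 20 on the WT arrays.

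The subunits of these complexes that mitochondrial DNA encodes were measured in part, by 3 of 6 genes, and are not among the 41. COX2, a catalytic core subunit of complex IV, had 11.48, 11.24 and 11.44 in KO and 11.31, 11.17 and 11.14 in WT, a difference of 0.18 (SE 0.11, limma adjusted p = 0.827). CYTB, the cytochrome b of complex III, had 14.68, 14.83 and 14.73 in KO and 14.75, 14.71 and 14.78 in WT, a difference of -0.0010 (SE 0.09). ATP6, the subunit a of complex V, had 12.00, 12.10 and 12.14 in KO and 12.19, 11.87 and 12.00 in WT, a difference of 0.06 (SE 0.11). The groups overlapped for all 3, and limma called 0 of them, with 0 at an unadjusted p under 0.05.

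Genes that build, feed and control these complexes gave no calls either. Of 60 listed genes 51 were tested, and 0 passed limma's adjusted threshold. At an unadjusted limma p under 0.05 there were 3, where the share over all genes tested was 7.28%. Their median difference was 0.01, and for 9 of them (17.6%) the groups did not overlap, against 13.3% of all genes tested. Among 20 genes for complex IV assembly 12 were positive. Sco1, a copper chaperone of the oxidase, had 8.86, 8.58 and 8.64 in KO and 8.17, 8.47 and 8.44 in WT, a difference of 0.33 (SE 0.13, limma adjusted p = 0.620). Cox17, which passes copper to it, had 11.82, 11.70 and 11.87 in KO and 11.58, 11.56 and 11.62 in WT, a difference of 0.21 (SE 0.09, limma adjusted p = 0.708). Lrpprc, which stabilises mitochondrial mRNA, had 0.24 (SE 0.10, limma adjusted p = 0.663). The KO values of all 3 were above the WT values, yet none passed. These 3 were named for the smallest p in their list, so such separation follows in part from the choice. In the same list Cox18 also had all KO values above WT (0.20), and Cox20 had all KO values below WT (-0.14).

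The gene of the complex V inhibitor had a negative difference. Atpif1, whose protein blocks ATP hydrolysis by the synthase, had 12.50, 12.50 and 12.42 in KO and 12.76, 12.74 and 12.57 in WT. The groups did not overlap, with a difference of -0.22 (SE 0.10, limma adjusted p = 0.707). Of the 6 carrier and outer membrane genes the mitochondrial creatine kinase gene Ckmt2 had the largest difference, 0.24 (SE 0.12), the outer membrane channel Vdac2 had 0.08 (SE 0.11), and the adenine nucleotide carrier Slc25a5 had 0.05 (SE 0.09). Among 14 regulators of mitochondrial genes, Ppargc1a, the coactivator of mitochondrial biogenesis, had 7.67, 7.75 and 8.14 in KO and 7.75, 7.82 and 7.12 in WT, a difference of 0.29 (SE 0.21). Esrrb, an estrogen-related receptor, had 0.44 (SE 0.16, limma adjusted p = 0.606), Esrrg 0.30 (SE 0.16), and the mitochondrial transcription factor gene Tfam 0.13 (SE 0.13). The genes Nrf1 and Gabpa had 0.04 (SE 0.14) and -0.05 (SE 0.10). The regulators named here lean to positive values more than their list does. Over all 14 regulators 7 differences were positive, and the median was -0.0022.

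Slow fibre genes, whose fibres are rich in these complexes, had a larger median difference on the same arrays. All 6 slow markers had a positive difference, with a median of 0.50 and a range of 0.12 for Atp2a2 to 0.84 for Myl2. By limma 0 passed the adjusted threshold and 4 of 6 had an unadjusted p under 0.05, against 7.28% of all genes tested. The slow troponin I gene Tnni1 had 9.54, 9.55 and 9.57 in KO and 8.99, 9.04 and 8.74 in WT, a difference of 0.63 (SE 0.11, limma adjusted p = 0.133). The slow myosin light chain gene Myl2 had 13.51, 13.37 and 13.63 in KO and 12.58, 12.95 and 12.48 in WT, a difference of 0.84 (SE 0.15, limma adjusted p = 0.139). The median over the respiratory members was 0.05, with a range up to 0.26 that Atp2a2 and Tnnt1 (0.20) also lay in. Over the 6 slow markers the summed normalised intensity was 41864, 39138 and 43441 in KO and 31263, 36386 and 27501 in WT. WT 3, the array apart on the first principal component, was thus the lowest. Atp2a2 had 12.53, 12.37 and 12.42 in KO and 12.33, 12.55 and 12.10 in WT, so its groups overlapped. How the slow markers change with an array left out was not examined. The difference between these lists was not tested.

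**Figure D5:**
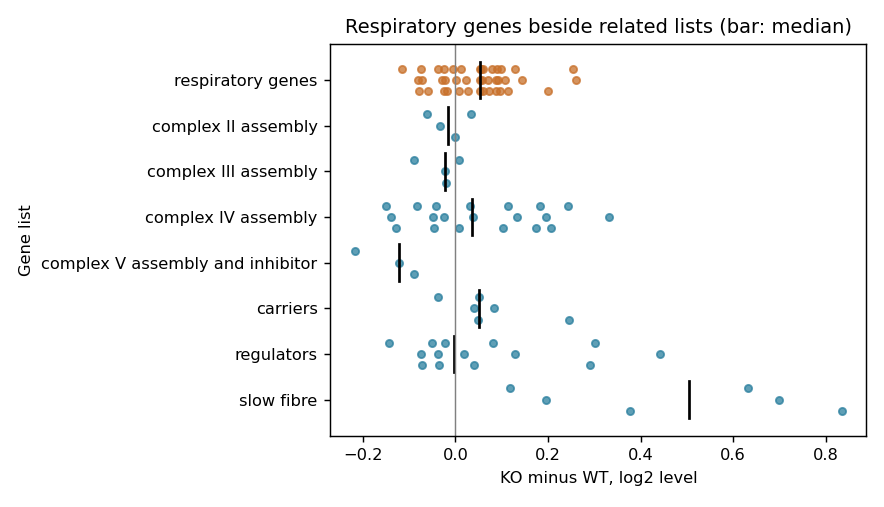
Difference KO minus WT in log2 level (x axis) of each gene in the respiratory set and in 7 related lists (rows), with a black bar at each list's median. The respiratory genes lie between -0.11 and 0.26 around a median of 0.05, and the 6 slow fibre genes have a median of 0.50.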

How the data were processed

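The authors deposited a table with, per the file headers, a mean bead intensity, a bead count, a bead standard error and a detection p-value for each probe and array. From its values the intensity is linear and not background-subtracted. A further deposited intensity table is, from its values, linear and quantile-normalised. Trizol served for RNA extraction and an Ambion kit for labelling, per the labels' protocols. The sources used here name no scanner or software.

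Intensities were processed with neqc of limma 3.58.1 in R 4.3.3 (background from the detection p-values, offset 16, quantile normalisation, log2). Of 45281 probes 34885 had 1 symbol, 18 several and 10378 none. Probes with detection p under 0.05 on 3 or more of 6 arrays were kept, and the brightest stood for its symbol. Detected probes without a symbol were tested on their own, so the 13455 genes are 10493 symbols and 2962 such probes. KO and WT were compared by limma, two-sided, with Benjamini-Hochberg adjustment over all genes. On simulated data for this comparison, over 13455 genes, 77% of changes of 1 and 95% of changes of 2 (log2) were recovered. In it 100 genes were changed by each amount, and 9 unchanged genes were called. Changes as small as the members' differences were not simulated, so these shares do not apply to them. Isoform balance was tested by exact permutation in scipy 1.17.1. RefSeq promoter windows (GRCm38.p6) were matched by symbol. The number of arrays limits the precision, and whether probes also read pseudogene transcripts was not tested.

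Replicate numbers come from the titles, and the design text states that littermates were killed together. Deviations from group means correlated by 0.34, 0.22 and 0.46 between arrays of the same number, and by -0.41 to 0.24 between others. The numbers were therefore taken to pair littermates. These ranges overlap, and the sources used here do not state that a number marks a litter. Within a genotype the deviations of a gene sum to 0, so positive values at the same number push the others down. A litter and a batch shared by arrays of the same number cannot be told apart by these correlations. The main fit had no block. All members could be named. Every array's values were given for isoform genes, members with separate groups and single-array patterns, except that Cox6b1 and Cox6b2 have mean and SD only. From the other lists up to 3 genes per list were named by smallest p. Cox18, Cox20, Myh8, Tfam, Nrf1 and Gabpa, and the range of the slow fibre list (Atp2a2, Tnnt1), outside this rule, were chosen after their values were seen. The mitochondrially encoded genes were looked up by RefSeq's symbols, a choice also made after seeing the data. The members, lists and tests were chosen with earlier results of these data known. No protein sequences were used here. Markers of cardiac muscle, macrophages, endothelium and erythroid cells (1, 3, 3 and 2 measured) gave 0 calls, with median differences of -0.04, -0.13, -0.08 and -0.08.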

Additional observations from a re-analysis of the deposited data

How the results depend on the processing

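Under each of the 13 alternatives 0 members were called, and the member median stayed positive, between 0.03 and 0.09, with 23 to 33 members positive. The calls over all genes depended on the processing: 23 higher and 8 lower with the authors' table and also without background correction, 0 and 1 without the detection filter (1945 at an unadjusted limma p under 0.05), and 8 lower with the replicate block. Leaving out each array gave 0 to 15 higher and 1 to 9 lower. Median centring turned the sign of Cyc1 (0.057), Cycs (0.012), Cox4i1 (0.045), Atp5o (0.023) and Atp5j (0.055), and averaging probes that of Cycs (0.17) and Atp5o (0.044). The authors' table, no background correction, stricter or no detection filters and the block turned no member's sign. With 1 array left out, the Cox6a2 minus Cox6a1 change lay between -0.048 and 0.35. Over the same fits the range crossed 0 for 19 members: Sdhb (-0.041 to 0.12), Sdhc (-0.052 to 0.043), Sdhd (-0.11 to 0.017), Uqcrc1 (-0.032 to 0.083), Cyc1 (-0.086 to 0.039), Cox4i1 (-0.050 to 0.038), Cox4i2 (-0.17 to 0.027), Cox5b (-0.041 to 0.16), Cox6a1 (-0.23 to 0.070), Cox6b2 (-0.039 to 0.19), Cox7b (-0.018 to 0.15), Atp5b (-0.043 to 0.0082), Atp5c1 (-0.019 to 0.075), Atp5o (-0.061 to 0.017), Atp5h (-0.061 to 0.017), Atp5k (-0.36 to 0.16), Atp5j2 (-0.0038 to 0.029), Atp5md (-0.031 to 0.32) and Atp5mpl (-0.019 to 0.032). None of these values passed the test, so their signs are not called. The cause of these shifts was not tested. The planned isoform pairs with Cox8a or Atp5g1 were not run, since no probe carried those symbols.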

Other observations

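Of 5 probes of the members tied to cDNA clone records, some followed the replicate number and not the genotype. This was not limited to clone probes. The Atp5md probe, tied to a curated transcript, was highest on number 1 in both genotypes, at 6.20 in KO and 6.28 in WT. How many of the other detected probes did so was not counted. Besides Atp5k, a second probe of the alpha subunit gene Atp5a1 had 7.88, 7.78 and 7.01 in KO and 7.74, 7.78 and 6.95 in WT, low on both arrays with the number 3. Its brighter probe did not share this, with 9.59, 9.41 and 9.52 in KO and 9.50, 9.47 and 9.35 in WT. The probe table ties the brighter Atp5a1 probe to a curated transcript. The Uqcrq probe, also a clone probe, was lowest within each genotype on the array with the number 3. A second Atp5mpl probe had 5.58, 6.09 and 6.45 in KO and 5.61, 5.94 and 6.15 in WT, low on both arrays with the number 1. The remaining clone probe, of Atp5pb, did not follow the number, with 5.58, 5.53 and 5.52 in KO and 5.58, 5.88 and 5.55 in WT. The part of the transcript form in these values was not tested.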
